A study of Homo sapiens with 6 samples.

Results

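The genes described here are the autosomal protein-coding genes with a genomic span of more than 500 kb, leaving out those whose names start with ARHGAP, ARHGEF, COL or KIF. They were chosen from the biotype, chromosome and coordinates listed for each gene and from no measured value. 301 of 58735 genes met this rule, among 19019 autosomal protein-coding genes. A further 3 genes over the limit were left out by name and 13 lay on chromosomes X and Y. RNA sequencing was analysed from MDA-MB-231, an established human cell line of basal-like breast cancer, in 3 libraries at 0 Gy and 3 libraries collected 24 h after 10 Gy from a caesium source. Both groups carried the non-targeting shRNA construct shSCR, so every value below belongs to this control background, for which the labels give the genotype as WT. All libraries come from a single cell line, and the labels do not say whether replicates were separate cultures, so p-values measure only the spread between these libraries.

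Very long genes consist almost wholly of introns. RNA polymerase II needs hours to cross such a template, the transcript is spliced while it is still being made, and topoisomerases and elongation factors such as CDK12 are known to be needed for complete transcripts. Many very long genes encode synaptic adhesion molecules and ion channels of neurons, and several of the longest coincide with common fragile sites, regions that break when replication is slowed. Ionizing radiation breaks DNA and stops the cell cycle, and the comparison asked how the RNA of these genes stood 24 h after the dose.

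Reads recovered from the deposited values numbered 15643641 to 28861781 per library, and each tested member had between 77 and 7933 of them in a library, with a median of 676. Marker genes at 0 Gy included the mesenchymal filament gene VIM at 301 ± 9.54 FPKM and KRT18 at 109 ± 6.77 FPKM (SD, n = 3). KRT19 stood at 90.9 ± 5.17 FPKM and EPCAM at 1.44 ± 0.116 FPKM (SD, n = 3). Whether these levels identify the labelled line was not tested. The oestrogen receptor gene ESR1 stood at 0.00872 FPKM and the progesterone receptor gene PGR was listed at 0. The receptor gene ERBB2 was expressed, at 7.08 ± 0.39 FPKM (SD, n = 3), close to the median of 7.11 FPKM over all tested genes. Neuronal markers were near the bottom of the scale, with SYP at 0.0964 FPKM, RBFOX3 at 0.0207 FPKM and NEFL listed at 0.

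The members had a median span of 727 kb and the longest reached 2474 kb, with 64 of them longer than 1000 kb. They lay on 21 of the autosomes, with 37 on chromosome 3 and none on chromosome 19. Among the 84 members that were expressed well enough to test, exons made up a median of 1.56% of the span, against 15.8% in all tested autosomal protein-coding genes. The longest intron of a tested member had a median of 200 kb and reached 956 kb in NRG1. Span was not the same as the length of the usual transcript, since the principal transcript, the main protein-coding form marked by APPRIS in GENCODE 29, itself spanned more than 500 kb in 63 of the 84. In GSE1 it spanned 63.0 kb and in EGLN3 26.8 kb, and these names are given for their annotation.

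The listed start of a very long gene often differed between annotations. Promoter windows of RefSeq on GRCh38.p14, from 250 bases before to 50 bases after a start, were matched by symbol for 70 of the 84 tested members, and 43 of these had more than 1 start. In 17 of the 70 the most upstream RefSeq start lay more than 100 kb from the start listed with the values, against 62 of 8141 tested autosomal protein-coding genes. The windows below belong to the members with the largest rise and the largest fall after 10 Gy, and show where transcription of these genes is annotated to begin. Capitals mark each CG dinucleotide, and all 3 windows lie on the plus strand. The first NAV2 window, chr11:19344986-19345285, belongs to a start 5.5 kb before the listed gene, the second, chr11:19712587-19712886, to a start 362.1 kb inside it, and the CDH4 window, chr20:61499171-61499470, to a start 247.0 kb inside the listed gene.
NAV2 first start: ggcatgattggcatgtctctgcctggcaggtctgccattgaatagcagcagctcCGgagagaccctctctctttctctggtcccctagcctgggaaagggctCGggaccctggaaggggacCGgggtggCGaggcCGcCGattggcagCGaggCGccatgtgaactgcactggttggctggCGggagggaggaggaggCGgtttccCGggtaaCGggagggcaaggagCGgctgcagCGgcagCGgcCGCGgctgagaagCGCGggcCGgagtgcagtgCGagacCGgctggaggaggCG
NAV2 second start: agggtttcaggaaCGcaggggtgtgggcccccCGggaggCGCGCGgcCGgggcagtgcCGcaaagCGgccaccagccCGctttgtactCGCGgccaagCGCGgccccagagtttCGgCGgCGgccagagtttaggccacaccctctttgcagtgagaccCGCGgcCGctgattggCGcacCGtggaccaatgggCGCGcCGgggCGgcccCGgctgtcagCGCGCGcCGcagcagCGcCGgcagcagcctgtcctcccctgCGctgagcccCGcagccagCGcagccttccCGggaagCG
CDH4 first start: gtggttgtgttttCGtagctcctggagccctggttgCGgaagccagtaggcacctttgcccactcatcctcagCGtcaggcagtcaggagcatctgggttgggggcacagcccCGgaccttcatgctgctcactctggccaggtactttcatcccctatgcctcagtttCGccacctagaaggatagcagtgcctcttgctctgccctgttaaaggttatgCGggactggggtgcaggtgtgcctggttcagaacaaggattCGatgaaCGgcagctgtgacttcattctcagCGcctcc

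These windows held 23, 37 and 9 CG dinucleotides. The most upstream RefSeq window held 23 in NAV2 and 9 in CDH4, where it is not at the listed start. The median was 28.5 in the most upstream window of the tested members. That median was 27.0 over 8141 tested autosomal protein-coding genes and 22.0 over all 14197 with a match. The other NAV2 window and the other CDH4 window, not printed, held 5 and 14. The letters GGGCGG, searched on both strands, were present in the second NAV2 window and in neither of the others. They were in 57.1% of the most upstream windows of tested members, beside 72.3% of those of tested autosomal protein-coding genes and 59.7% over all autosomal protein-coding genes. The letters TATAAA, searched on both strands, were in none of the 3 windows, in 7.14% of the windows of tested members, in 5.07% of those of tested autosomal protein-coding genes and in 9.58% over all autosomal protein-coding genes. The untested members still had a median of 22.0 CG dinucleotides, beside 9.0 in untested autosomal protein-coding genes. A match or its absence describes these letters in this window and no binding.

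Most very long genes were silent or nearly silent in MDA-MB-231 cells at 0 Gy. In all, 83 of the 301 members, or 27.6%, reached a mean of 1 FPKM, a level of fragments scaled to exon length and library depth, at a 95% Wilson interval of 22.8 to 32.9% that covers counting of genes alone. The share was 44.7% among autosomal protein-coding genes of less than 20 kb, 61.1% at 20 to 100 kb, 60.6% at 100 to 200 kb and 48.2% at 200 to 500 kb. The expressed share was highest at intermediate spans, and the interval of the members lay below that of each shorter class. Of the 301 members, 42 were listed at 0 in all 6 libraries, 116 had a mean above 0 but under 0.1 FPKM, 59 had a mean of 0.1 to 1 FPKM, and 84 passed the filter for testing, 1 FPKM or more averaged over the 6 libraries. A single member, BCAS3, named here for that reason, passed this filter with a mean under 1 FPKM at 0 Gy.

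**Figure D1:**
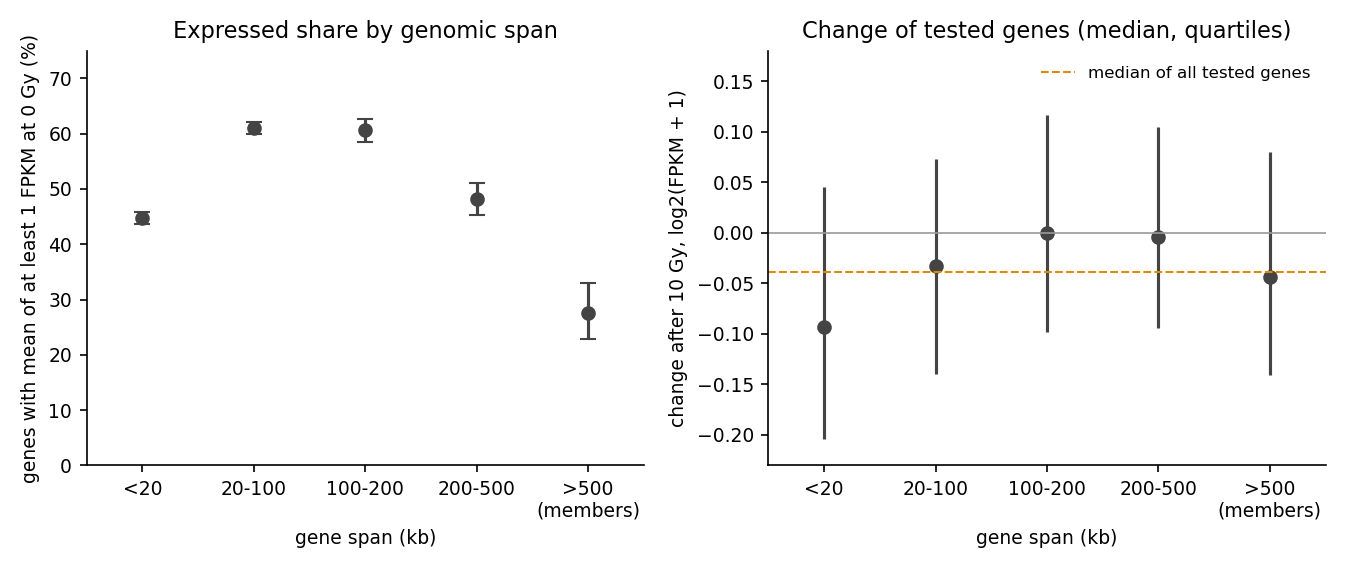
Left, share of autosomal protein-coding genes averaging 1 FPKM or more at 0 Gy in each class of genomic span (points, with 95% Wilson intervals). Right, change after 10 Gy on the log2(FPKM + 1) scale among tested genes of each class (points, medians; lines, quartiles; dashed line, median of all tested genes). The very long members had the lowest share, 27.6%, and a median change of -0.044.

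Neuronal genes had the lowest expressed shares among the members. In the list of neuronal adhesion and guidance genes, 6 of 44 members reached 1 FPKM at 0 Gy, and in the list of ion channels and transmitter receptors 1 of 18 did, the potassium channel gene KCNQ5. By contrast, 9 of 15 members controlling the cytoskeleton and GTPases reached it, as did 13 of 27 in trafficking, ubiquitin and autophagy and 12 of 28 in transcription, chromatin, RNA binding and DNA repair. The receptor tyrosine phosphatases stood at 3 of 6, the junction and polarity scaffolds at 5 of 14, the kinases, phosphodiesterases and lipid signalling genes at 9 of 27, and the genes of metabolism, mitochondria and extracellular enzymes at 7 of 25. Members in no list numbered 98, of which 18 reached 1 FPKM. Of 32 members at common fragile sites, 7 did, including the pyrimidine-degrading enzyme gene DPYD, the phosphatase gene PTPRG and the teneurin gene TENM3.

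The members that were expressed stood at moderate levels, with a median of 2.82 FPKM at 0 Gy against 7.11 FPKM over all 12128 tested genes. FPKM is a level per length of exon, and that length joins the exons of all transcripts of a gene. Its median was 10926.5 bases in the tested members and 4601.5 over all tested genes. Levels of different genes can therefore be set beside each other only roughly. The highest was ADK, adenosine kinase, at 30.0, 30.2 and 27.9 FPKM at 0 Gy, followed by the protein kinase C alpha gene PRKCA at 17.7, 18.9 and 18.7 FPKM. The receptor phosphatase gene PTPRK stood at 14.3, 14.9 and 14.1 FPKM and the polarity gene PARD3 at 12.5, 13.4 and 13.0 FPKM. These 4 genes did not overlap with their neighbours in this order. The next 3 did overlap, namely DLC1 at 10.6 ± 0.211 FPKM, the microtubule-binding gene NAV2 at 10.6 ± 1.33 FPKM and the RAC1 activator gene DOCK1 at 10.3 ± 0.55 FPKM (SD, n = 3). FAF1, a partner of the segregase VCP, followed at 9.97 ± 0.42 FPKM, the adhesive phosphatase gene PTPRM at 9.30 ± 0.607 FPKM and DPYD at 9.18 ± 0.295 FPKM. The 5 longest genes tested ranged from 1.60 to 7.99 FPKM. PDE4D, a cyclic AMP phosphodiesterase gene of 1553 kb, stood at 1.96 ± 0.0719 FPKM. TBC1D5, a RAB7 regulator gene of 1288 kb, stood at 3.31 ± 0.13 FPKM, and RUNX1, a transcription factor gene of 1217 kb, at 7.99 ± 0.549 FPKM. GPC6, a glypican gene of 1181 kb, stood at 1.60 ± 0.174 FPKM and the guidance receptor gene ROBO1, of 1171 kb, at 2.33 ± 0.234 FPKM. Across the 84 tested members the rank correlation of span with the mean at 0 Gy was -0.173, a description over genes that share libraries and are not independent replicates.

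**Figure D2:**
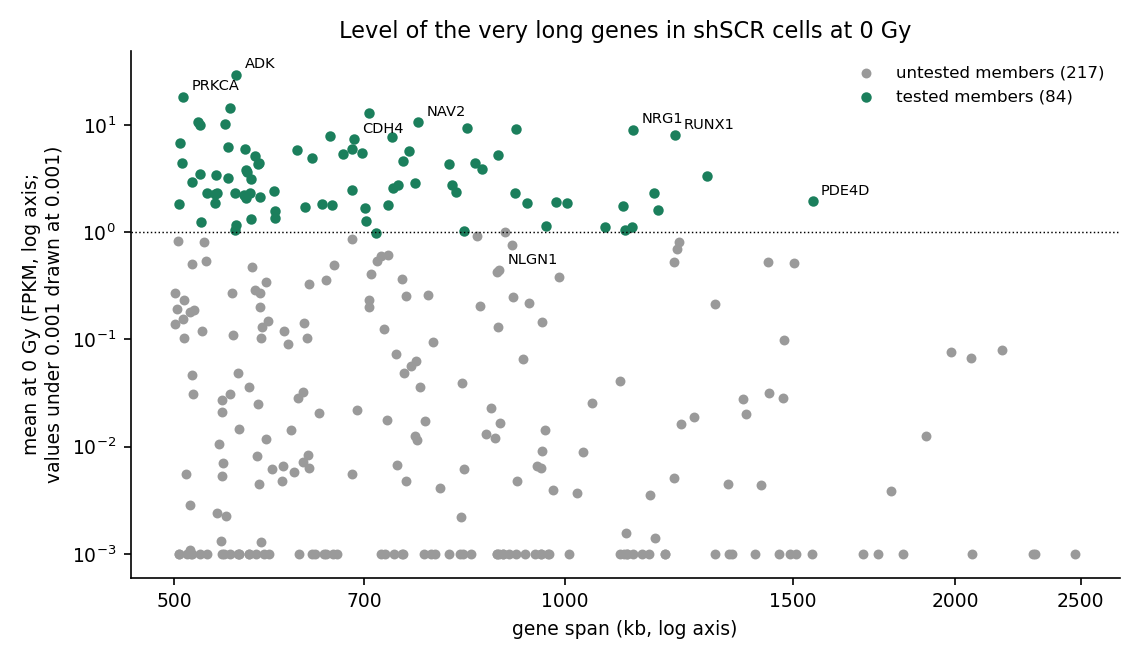
Mean FPKM at 0 Gy (log axis) against genomic span in kb (log axis) for the 301 very long genes, with the 84 tested members in green and the 217 untested in grey. Values under 0.001 are drawn at 0.001, and the dotted line marks 1 FPKM. Expressed and silent genes were found along most of the range of spans, and 11 of the 64 genes longer than 1000 kb were tested.

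After 10 Gy, 23 of the 84 tested members changed, 9 higher and 14 lower, at an adjusted p under 0.05 by limma with Benjamini-Hochberg adjustment over all 12128 tested genes. This was 27.4% of the members, and over all tested genes 35.6% were called, 11.9% higher and 23.7% lower. The members had 10.7% higher and 16.7% lower, so in neither direction was their share above that of all genes in this fit. Their share of higher calls was above that of all genes by voom on the recovered reads, at 27.4% beside 23.4%, and among genes of at least 5 FPKM, where 6 of 24 members, or 25%, were called higher beside 12%. In that filtered set 54.2% of the members were called in either direction beside 49.7% of all genes. Without 0 Gy replicate 2 or 3 it was 10.7% beside 10.5% and 9.52% beside 9.38%. The pseudocount of 1 shrinks the log2 change of weakly expressed genes. On that scale the median change was -0.044 in the members, from -0.62 in CDH4 to 0.70 in NAV2, and -0.039 over all tested genes. In the shorter classes it was -0.093 under 20 kb, -0.033 at 20 to 100 kb, 0.000 at 100 to 200 kb and -0.004 at 200 to 500 kb. All 23 called members had no overlap between the groups, as had 16 uncalled ones, which came to 46.4% of the tested members beside 51.9% of all tested genes. A change of at least 0.379 on this scale, the log2 of 1.3, was called in 4 members, NAV2, CDH4, ENOX1 and NAV3, or 4.76% beside 5.77% of all tested genes. GSE1 and TTC28 stayed under it although the ratios of their mean FPKM were 1.36 and 1.35. Of the 61 uncalled members, 57 had a 95% interval that lay wholly inside 0.379 in either direction on this scale. In these bulk values a change in RNA per cell and a change in the mix of cells cannot be told apart.

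**Figure D3:**
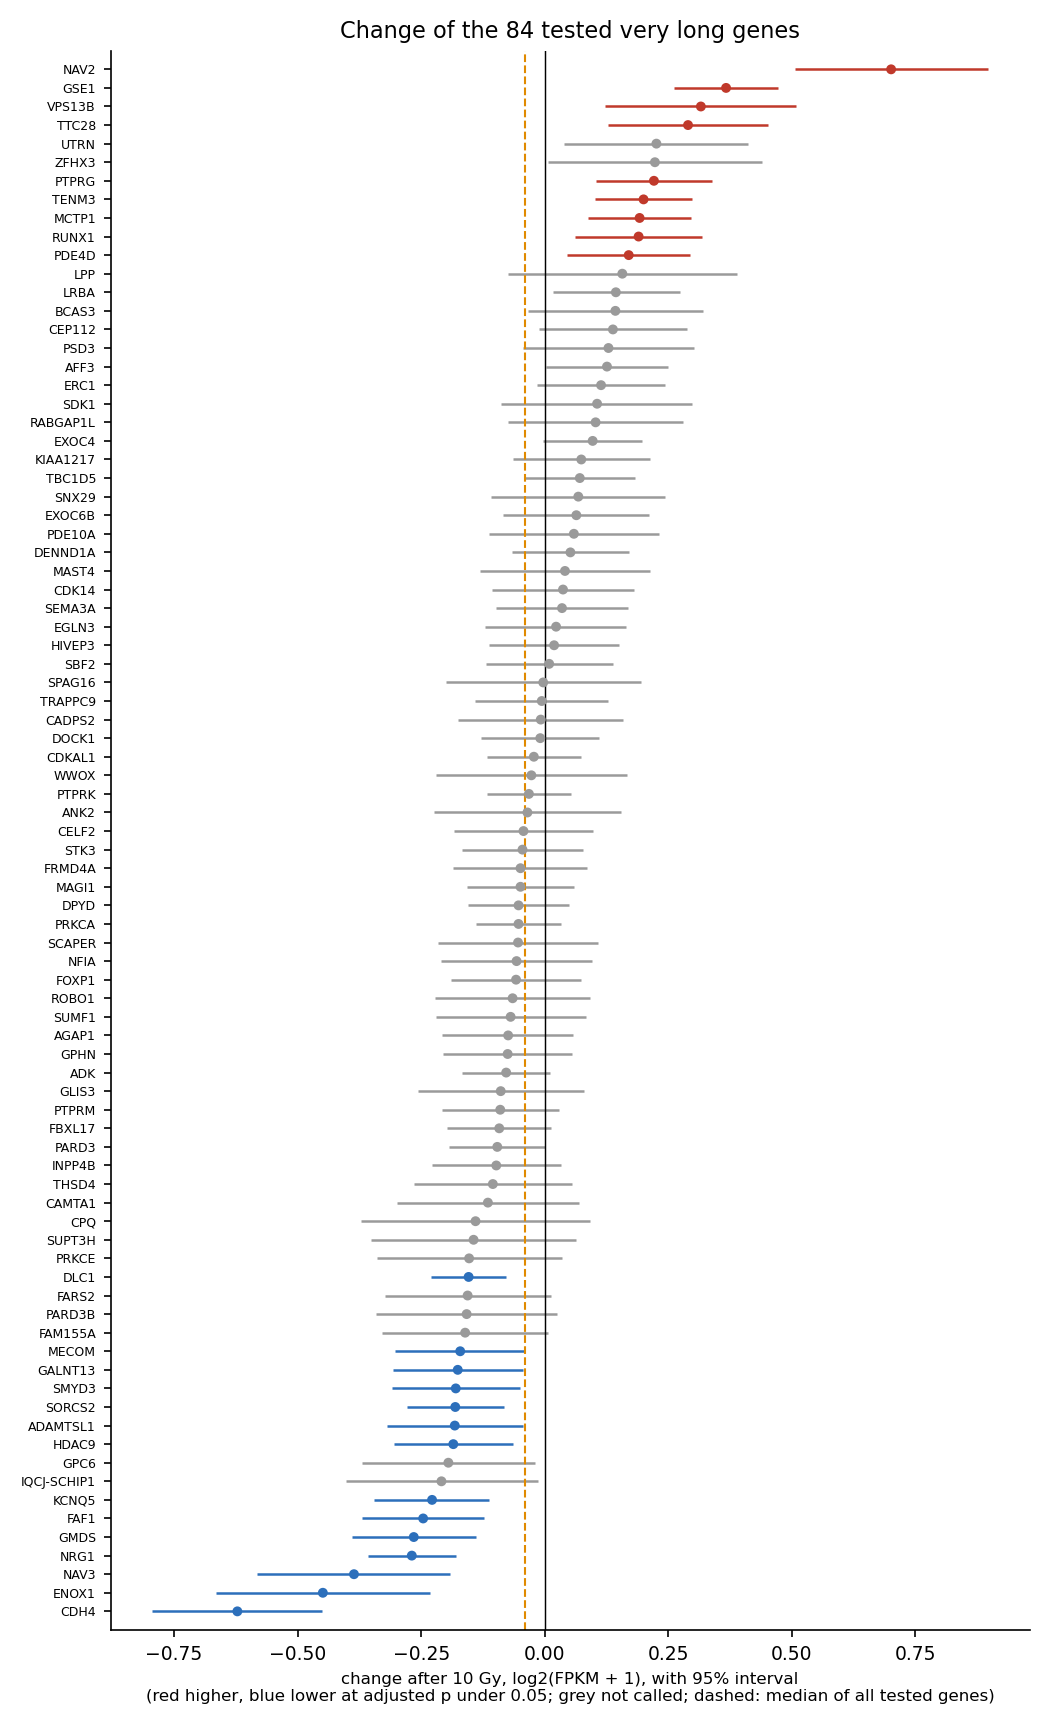
Change after 10 Gy of each of the 84 tested members on the log2(FPKM + 1) scale (points) with the 95% interval of limma (lines). Red and blue mark members called higher and lower, and the dashed line is the median of all tested genes, -0.039. NAV2 at 0.70 and CDH4 at -0.62 stood apart from the rest.

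The split between rises and falls moved with the scaling of the libraries and with the method. With upper quartile scaling 14 members were called higher and 6 lower, with TPM 15 and 5, with median-of-ratios scaling 12 and 9, and with each library's own recovered reads as depth 13 and 7. Voom on the recovered reads, which takes reads in place of log2(FPKM + 1) and weights them, gave 23 and 9. The calls over all tested genes shifted in the same way, to 21.1% higher and 11.9% lower with upper quartile scaling, 25.7% and 8.79% with TPM, 16% and 16.9% with median-of-ratios scaling, 18.9% and 13.6% with own depth, and 23.4% and 15.5% by voom. The members had 16.7% and 7.14%, 17.9% and 5.95%, 14.3% and 10.7%, 15.5% and 8.33%, and 27.4% and 10.7% in the same order. The median of all tested genes moved by 0.115 under TPM, and the members' median moved with it, to 0.07 beside 0.08 over all genes. All 9 members called higher and 5 of the 14 called lower stayed called under upper quartile, TPM, median-of-ratios and own-depth scaling. The 5 were CDH4, ENOX1, NAV3, NRG1 and GMDS. Each of the 23 kept its direction in every alternative in which it was tested. Leaving out the library of 10 Gy replicate 1 left 4 higher and 8 lower, leaving out 10 Gy replicate 2 left 3 and 9, and leaving out 10 Gy replicate 3 left 6 and 9. In these fits the share called over all tested genes was also smaller, at 7.21% higher and 15.1% lower, 7.03% and 14.9%, and 8.31% and 18%. Without 0 Gy replicate 2 there were 9 and 9, and without 0 Gy replicate 3 there were 8 and 9, with lower calls in 21.7% and 20.3% of all tested genes. NAV2, TENM3, GSE1, CDH4, ENOX1, NRG1 and GMDS stayed called in every alternative run on them, apart from the filter of 5 FPKM, where ENOX1 was not tested.

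Among genes of the cytoskeleton and GTPase control, 2 of 9 tested members rose and 2 fell, or 44.4% called beside 35.6% of all tested genes (11.9% higher and 23.7% lower). By voom 4 of the 9 were higher and 1 lower, beside 23.4% and 15.5% of all tested genes by voom. The neuron navigators moved in opposite directions. NAV2, which encodes a microtubule-binding protein induced by retinoic acid, lies at 19350724 to 20121598 on the plus strand of chromosome 11 (GRCh38). It was measured at 9.04, 11.4 and 11.3 FPKM at 0 Gy and at 18.1, 18.3 and 16.8 FPKM at 10 Gy. All irradiated libraries stood above all controls, and the ratio of the means was 1.68. The log2 change was 0.70 (SE 0.083, limma adjusted p = 0.0015), the largest rise of the members. Its relative NAV3, also a microtubule-binding protein, is at 77324641 to 78213008 on chromosome 12 and was measured at 4.48, 5.62 and 5.65 FPKM at 0 Gy and 3.95, 3.52 and 3.82 FPKM at 10 Gy. NAV3 was lower in each irradiated library, with a log2 change of -0.39 (SE 0.083, limma adjusted p = 0.012), and without the filter on low values its adjusted p was 0.052. TTC28, a tetratricopeptide repeat protein of the mitotic spindle, rose from 1.48, 1.78 and 1.77 FPKM to 2.35, 2.32 and 2.13 FPKM. Its log2 change was 0.29 (SE 0.069, limma adjusted p = 0.017), and the TTC28 call was lost without 10 Gy replicate 1, at an adjusted p of 0.064, without 10 Gy replicate 2, at 0.061, and without the filter, at 0.062. DLC1 fell from 10.6, 10.4 and 10.8 FPKM to 9.38, 9.51 and 9.41 FPKM, a log2 change of -0.15 (SE 0.032, limma adjusted p = 0.011). The DLC1 call was lost under TPM, with a log2 change of -0.04 and an adjusted p of 0.46. It was also lost with upper quartile scaling, at 0.16, with own recovered reads as depth, at 0.092, and by voom, at 0.061. DOCK1 had a log2 change of -0.01 with a 95% interval of -0.13 to 0.11, at 10.3 ± 0.55 and 10.2 ± 0.495 FPKM (SD, n = 3).

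A neighbour within NAV2 did not move with it. The lincRNA AC009549.1 lies inside NAV2 on the opposite strand, and how strand was treated in counting is not given in the sources used here. It stood at 2.19 ± 0.57 FPKM at 0 Gy and 1.72 FPKM at 10 Gy, a log2 change of -0.22 (limma adjusted p = 0.27).

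**Figure D4:**
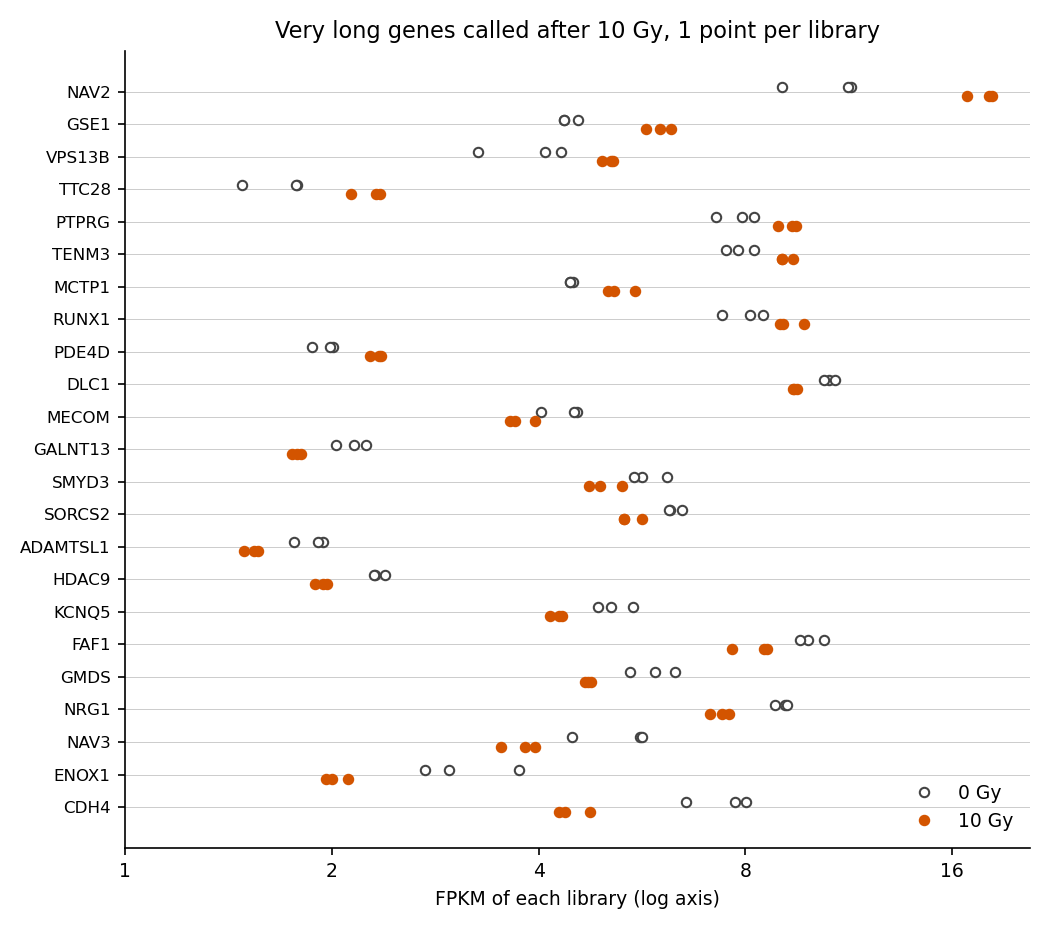
FPKM of each library (log axis) for the 23 called members, ordered by change, with 0 Gy as open and 10 Gy as filled points. In none of these genes did the groups overlap, and the widest gaps were in NAV2, whose irradiated libraries were at 16.8 to 18.3 FPKM, and in CDH4, at 4.28 to 4.75 FPKM.

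Of 6 tested neuronal adhesion and guidance genes, TENM3 rose and CDH4 and NRG1 fell, 3 calls of 6 beside 35.6% of all tested genes. CDH4 encodes R-cadherin, a calcium-dependent adhesion molecule, at 61252426 to 61940617 on chromosome 20. Its levels were 6.56, 7.73 and 8.01 FPKM at 0 Gy and 4.75, 4.28 and 4.37 FPKM at 10 Gy, and no library of either group reached the range of the other. The ratio of means was 0.601 and the log2 change -0.62 (SE 0.073, limma adjusted p = 0.0014), the largest fall of the members. NRG1, the ligand of the receptors ERBB3 and ERBB4, fell from 8.84, 9.14 and 9.20 FPKM to 7.10, 7.40 and 7.56 FPKM. Its log2 change was -0.27 (SE 0.038, limma adjusted p = 0.0026). The principal transcript of NRG1 spans 215.8 kb of its 1129 kb. TENM3, a teneurin that links neighbouring cells, rose from 7.50, 8.23 and 7.80 FPKM to 9.04, 9.38 and 9.04 FPKM, with a log2 change of 0.20 (SE 0.042, limma adjusted p = 0.011). ROBO1, a receptor for Slit proteins, was at 2.33 ± 0.234 FPKM at 0 Gy and 2.18 ± 0.0612 FPKM at 10 Gy (SD, n = 3), with a 95% interval of -0.22 to 0.09 for its log2 change.

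The synaptic adhesion gene NLGN1 lay just under the filter, and its values moved more than those of any tested member in ratio. It came near the filter through its 10 Gy values, so its naming depended on the rise and the rise is only described. NLGN1 encodes neuroligin 1, which pairs with neurexins across synapses, and lies at 173396284 to 174286644 on chromosome 3. It was at 0.416, 0.545 and 0.378 FPKM at 0 Gy, from 90, 85 and 83 reads, and at 1.3, 1.37 and 1.1 FPKM at 10 Gy, from 396, 253 and 242 reads. Every irradiated library was above every control, and the ratio of the means was 2.82. In the limma fit without the filter its log2(FPKM + 1) change was 0.64 (SE 0.09, adjusted p = 0.014). That fit called 14 of 259 members, or 5.41% beside 9.2% of 31650 genes, and these were 13 of the 23 and NLGN1. The other untested members nearest the filter were ATRNL1, an attractin-like membrane protein, at 0.921 ± 0.12 and 0.829 ± 0.0948 FPKM, and IMMP2L, a mitochondrial inner membrane peptidase, at 0.998 ± 0.106 and 0.686 ± 0.0902 FPKM (SD, n = 3). IMMP2L was lower in each irradiated library and had an adjusted p of 0.16 in the unfiltered limma fit.

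Of 3 tested receptor tyrosine phosphatases 1 was called, as higher, beside 11.9% of all tested genes called higher. PTPRG, a receptor tyrosine phosphatase with a carbonic anhydrase-like ectodomain, rose from 7.25, 7.92 and 8.23 FPKM to 9.34, 9.48 and 8.93 FPKM. The log2 change was 0.22 (SE 0.05, limma adjusted p = 0.014). The call on PTPRG was lost without 10 Gy replicate 1, at an adjusted p of 0.052, and without 10 Gy replicate 2, at 0.056. PTPRK had a log2 change of -0.03 with a 95% interval of -0.12 to 0.05, and PTPRM of -0.09 with an interval of -0.21 to 0.03. Of 5 tested junction and polarity scaffolds, limma called 0, beside 35.6% of all tested genes, and 0 at an unadjusted p under 0.05 as well, and voom on the recovered reads called 1, LPP, as higher. PARD3, the most abundant of them, was at 13.0 ± 0.414 FPKM at 0 Gy and 12.1 ± 0.488 FPKM at 10 Gy (SD, n = 3), with overlapping groups and an adjusted p of 0.11 by limma.

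In signalling, 1 of 9 tested members changed, or 11.1% beside 35.6% of all tested genes. PDE4D, which degrades cyclic AMP, rose from 1.87, 2.01 and 1.99 FPKM to 2.36, 2.34 and 2.27 FPKM, a log2 change of 0.17 (SE 0.053, limma adjusted p = 0.042). The PDE4D call was lost when any of the 6 libraries was left out, with adjusted p-values of 0.064 to 0.12. PRKCA, the most abundant, had a log2 change of -0.05 with a 95% interval of -0.14 to 0.03. The sole tested channel gene, KCNQ5, which encodes a voltage-gated potassium channel, fell from 4.88, 5.49 and 5.10 FPKM to 4.33, 4.28 and 4.15 FPKM. Its log2 change was -0.23 (SE 0.05, limma adjusted p = 0.012), and its adjusted p was 0.14 under TPM and 0.066 with upper quartile scaling.

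Of 12 tested members in transcription, chromatin, RNA binding and DNA repair, RUNX1 rose and 3 fell, or 33.3% called, close to the 35.6% of all tested genes. By voom 3 were higher, RUNX1, AFF3 and ZFHX3, and HDAC9 was lower, beside 23.4% and 15.5% of all tested genes by voom. RUNX1, a transcription factor of blood and epithelial development, was at 7.40, 8.48 and 8.11 FPKM at 0 Gy and 9.08, 9.72 and 8.97 FPKM at 10 Gy. The log2 change was 0.19 (SE 0.055, limma adjusted p = 0.033), and the call was lost without 10 Gy replicate 2, at an adjusted p of 0.11, and in 5 of the 6 fits with 1 library left out, all but the one without 0 Gy replicate 2. HDAC9, a class IIa histone deacetylase, fell from 2.31, 2.39 and 2.30 FPKM to 1.97, 1.89 and 1.94 FPKM, a log2 change of -0.19 (SE 0.051, limma adjusted p = 0.029). The HDAC9 call was lost under all 4 scalings, at adjusted p-values of 0.06 to 0.21, and with any of the 6 libraries left out, at up to 0.089. The lysine methyltransferase gene SMYD3 and the zinc finger gene MECOM were also lower, at log2 changes of -0.18 and -0.17 (limma adjusted p = 0.041 and 0.0499). Both calls were lost under all 4 scalings, at adjusted p-values of 0.079 to 0.28 for SMYD3 and 0.12 to 0.44 for MECOM, by voom and without the filter. Each was also lost in 5 of the 6 fits with 1 library left out, at up to 0.13 for SMYD3 and 0.14 for MECOM. SMYD3 stayed called only without 10 Gy replicate 3 and MECOM only without 0 Gy replicate 1. These 2 and GALNT13 are named because they complete the set of called members. RPL22P1, a pseudogene inside MECOM on the same strand whose reads may belong to its parent gene, also fell, by 0.29 on the log2 scale (limma adjusted p = 0.0074).

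In trafficking, ubiquitin and autophagy, 1 of 14 tested members rose and 2 fell, beside 11.9% and 23.7% of all tested genes. A change above 0 was found in 10 of the 14 and in 5022 of all 12128. VPS13B, a lipid transfer protein of the Golgi, rose from 3.26, 4.09 and 4.31 FPKM to 5.10, 5.14 and 4.94 FPKM. The VPS13B log2 change was 0.32 (SE 0.082, limma adjusted p = 0.023), with adjusted p-values of 0.053 to 0.074 when any of the 10 Gy libraries was left out. FAF1 fell from 10.4, 9.86 and 9.61 FPKM to 8.50, 7.66 and 8.60 FPKM, a log2 change of -0.25 (SE 0.052, limma adjusted p = 0.011) whose adjusted p was 0.064 under TPM. SORCS2, a sortilin-family receptor for proneurotrophins, fell from 6.47, 6.21 and 6.19 FPKM to 5.32, 5.66 and 5.32 FPKM. The log2 change of SORCS2 was -0.18 (SE 0.042, limma adjusted p = 0.015), and its adjusted p was 0.25 under TPM, 0.059 without 10 Gy replicate 1 and 0.053 without 10 Gy replicate 3. The SORCS2 call was also lost with upper quartile scaling, at 0.096, with own recovered reads as depth, at 0.069, and by voom, at 0.052. By voom on the recovered reads 7 of these 14 were called higher and 1 lower, beside 23.4% and 15.5% of all tested genes. TBC1D5 had a log2 change of 0.07 with a 95% interval of -0.04 to 0.18.

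The 3 of 7 tested members of the list of metabolism, mitochondria and extracellular enzymes that changed were all lower, or 42.9% called beside 35.6% of all tested genes, of which 23.7% were lower. GMDS, which makes the precursor of GDP-fucose, fell from 6.31, 5.43 and 5.90 FPKM to 4.76, 4.67 and 4.72 FPKM. Its log2 change was -0.27 (SE 0.054, limma adjusted p = 0.0094). ADAMTSL1, a secreted matrix protein without protease activity, fell from 1.76, 1.94 and 1.91 FPKM to 1.49, 1.56 and 1.54 FPKM, with a log2 change of -0.18 (SE 0.059, limma adjusted p = 0.048). The ADAMTSL1 call was lost under all 4 scalings, at adjusted p-values of 0.091 to 0.26. It was also lost in 5 of the 6 fits with 1 library left out, all but the one without 0 Gy replicate 1, at up to 0.14. GALNT13, a glycosyltransferase that starts O-glycans, had a log2 change of -0.18 (SE 0.056, limma adjusted p = 0.045), at 2.14 ± 0.109 FPKM against 1.78 ± 0.0255 FPKM (SD, n = 3). The GALNT13 call was lost with any of the 6 libraries left out, at adjusted p-values of 0.056 to 0.13, under all 4 scalings, at 0.083 to 0.25, by voom and without the filter. DPYD, the rate-limiting enzyme of pyrimidine breakdown, had a log2 change of -0.05 with a 95% interval of -0.16 to 0.05. All 7 tested members of this list had a change below 0, as had 7106 of the 12128 tested genes, and under TPM that of DPYD was 0.07.

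Outside these lists, GSE1 and MCTP1 rose and ENOX1 fell, 3 of 18 tested members or 16.7% beside 35.6% of all tested genes. GSE1, a coiled-coil protein found with histone deacetylase complexes, was at 4.35, 4.35 and 4.57 FPKM at 0 Gy and 6.01, 6.24 and 5.74 FPKM at 10 Gy. Its log2 change was 0.37 (SE 0.045, limma adjusted p = 0.0016). MCTP1, a calcium-binding membrane protein of the endoplasmic reticulum, rose from 4.49, 4.44 and 4.44 FPKM to 5.04, 5.52 and 5.15 FPKM, a log2 change of 0.19 (SE 0.045, limma adjusted p = 0.016). Without 10 Gy replicate 2 the MCTP1 adjusted p was 0.056. ENOX1, which encodes a cell surface hydroquinone oxidase, fell from 2.96, 2.73 and 3.75 FPKM to 2.11, 1.96 and 2.00 FPKM. The ratio of its means was 0.643 and the log2 change -0.45 (SE 0.092, limma adjusted p = 0.0099). ADK, the most abundant member, had a log2 change of -0.08 with a 95% interval of -0.17 to 0.01.

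Among genes at common fragile sites, 2 of 7 tested members were called, both higher, beside 35.6% of all tested genes called and 11.9% called higher. These were PTPRG, whose call was lost without 10 Gy replicate 1 or 2, and TENM3. By voom 4 of the 7 were called higher, beside 23.4% of all tested genes by voom. By limma the median log2 change of the 7 was 0.10. In addition to these 2 and DPYD, the 7 were WWOX, EXOC4, SDK1 and PARD3B. WWOX, an oxidoreductase gene at a well-known fragile site, is named here for that site and had a log2 change of -0.03 with a 95% interval of -0.22 to 0.17, from 1.04 ± 0.159 and 0.995 ± 0.0561 FPKM (SD, n = 3). The members' part of all recovered reads was 0.375, 0.411 and 0.411% at 0 Gy and 0.436, 0.438 and 0.425% at 10 Gy. The means were 0.399 ± 0.0205 and 0.433 ± 0.00678% (SD, n = 3), and without NAV2 they were 0.384 ± 0.0185 and 0.406 ± 0.00542%. With total recovered reads as the denominator, the irradiated libraries stood above the controls in both shares. At that depth the members' median log2 change was 0.015, beside 0.023 over all tested genes, and 15.5% of them were called higher, beside 18.9%. The untested members took 0.0251% and 0.0290% of the reads on average.

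Among the very long genes the change varied with exon length, a pattern noticed after the values were seen. Rank correlation with the log2 change across the 84 tested members was 0.515 for the summed exon length and 0.028 for the genomic span, and over 10123 tested autosomal protein-coding genes it was 0.287 and 0.2. The members were chosen by span, which limits its range, so their value for span cannot be ranked against that for exon length. These are descriptions across genes that share libraries, and FPKM is itself divided by exon length. All 9 members called higher had between 11983 bases of exon, in TENM3, and 16716, in VPS13B, while the 14 called lower had between 3101 in ENOX1 and 16827 in HDAC9, with a median of 7560. By voom EXOC4, CEP112 and KIAA1217 were also called higher, with 9466, 7849 and 10807 bases, all under the members' median. Split at the members' median of 10926.5 bases, the 42 longer members had 9 rises and 5 falls and a median change of 0.06, and the 42 shorter ones had 9 falls and a median change of -0.08. The same split over tested autosomal protein-coding genes of all spans gave 23.6% higher and 7.44% lower among 901 longer genes and 11% higher and 27.8% lower among 9222 shorter ones, with medians of 0.06 and -0.06.

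**Figure D5:**
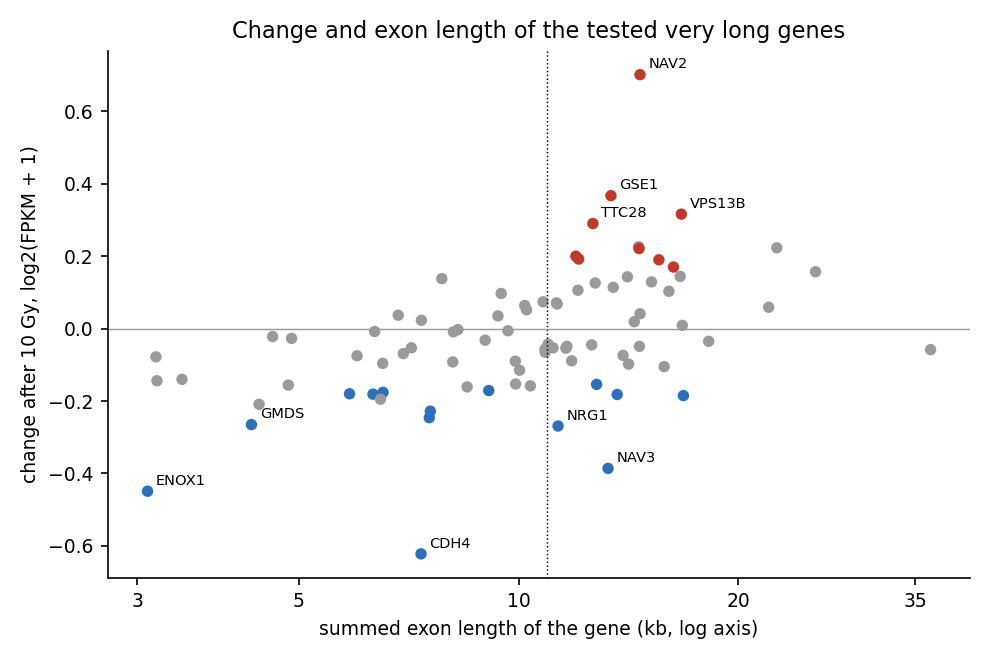
Change after 10 Gy on the log2(FPKM + 1) scale against the summed exon length in kb (log axis) of the 84 tested members, with those called higher in red, those called lower in blue and the others in grey. The dotted line is the median exon length, 10926.5 bases, and all 9 rises called by limma lie to its right.

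Members close to the limit of 500 kb show where the rule ended. Just inside were SPOCK3, a testican proteoglycan gene of 501412 bases, at 0.140 and 0.164 FPKM, and the potassium channel subunit gene KCNAB1, of 501437 bases, at 0.272 and 0.207 FPKM, at 0 and 10 Gy. Just outside were the formin gene DIAPH3, of 498404 bases, at 13.5 and 16.7 FPKM, and the calcium channel subunit gene CACNA2D1, of 497354 bases, at 1.07 and 1.29 FPKM.

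Other genes lay within nearly every member. Of the 301, 291 held at least 1 other gene entirely inside their span, 1456 such genes in all, and 31 of these were tested. Among the 31, limma called 7, or 22.6%, beside 35.6% of all tested genes. All 7 were lower and 0 were higher, beside 23.7% lower and 11.9% higher over all tested genes. Pseudogenes made up 15 of the 31, and reads of a pseudogene may belong to its parent gene. The called TMSB4XP8, HMGB1P6, RPL22P1 and AC080023.2 are processed pseudogenes. Of the 31, 21 were inside members that were not tested themselves. TIMP3, an inhibitor of matrix metalloproteinases, stood at 54.5 ± 2.26 FPKM (SD, n = 3) at 0 Gy inside SYN3, a synapsin gene listed at 0 in the 3 control libraries. TNC, the matrix protein tenascin C, lies inside DEC1, a member at 0.0308 FPKM whose name the table holds as a date, and fell from 10.7 ± 0.549 FPKM (SD, n = 3) to 8.22 FPKM, a log2 change of -0.35 (limma adjusted p = 0.0019). TIMP3 and TNC are named for their hosts and the pseudogenes for their biotype, and all were chosen after their values were seen.

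Elongation and 3' end processing factors were called in both directions, at shares near those of all tested genes in the main fit. Of 66 tested genes of a list of such factors, 9 were higher and 18 lower. This was 13.6% and 27.3%, beside 11.9% and 23.7% of all tested genes. The counts turned to 18 higher and 8 lower with upper quartile scaling and to 22 and 5 with TPM. All tested genes turned as well, to 21.1% higher and 11.9% lower with upper quartile scaling and to 25.7% and 8.79% with TPM. In the main fit, 0 of the 66 were called with a log2 change of at least 0.379, beside 5.77% of all tested genes. AFF4, the scaffold of the super elongation complex, rose from 20.3 ± 1.37 to 25.6 ± 0.0424 FPKM (SD, n = 3), a log2 change of 0.32 (limma adjusted p = 0.0033). POLR2A, the largest subunit of RNA polymerase II, rose from 47.3 ± 3.91 to 58.6 ± 2.25 FPKM, and the topoisomerase gene TOP2A from 125 ± 5.15 to 149 ± 5.01 FPKM (limma adjusted p = 0.0096 and 0.0047). The falls were led by SNRPA, a U1 snRNP protein, from 41.8 ± 2.52 to 33.2 ± 0.495 FPKM, with a log2 change of -0.32 (limma adjusted p = 0.0025). The subunits of the histone chaperone FACT fell together, SSRP1 by 0.28 and SUPT16H by 0.27 on the log2 scale (limma adjusted p = 0.0025 and 0.00089).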

How the data were processed

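RNA sequencing of 6 MDA-MB-231 shSCR libraries was analysed, grouped by the labels into 0 Gy (n = 3) and 10 Gy at 24 h (n = 3). The authors deposited FPKM values of polyA libraries, read in pairs of 150 bases by their sequencing provider. The submitters' processing notes name HISAT2 and GRCh38, and the counting program is not given in the sources used here. Identifiers and coordinates of all 58735 genes equal those of GENCODE 29, and the deposited length of each of the 301 members equals the union of its exons over all transcripts. FPKM times gene length times implied depth gave whole reads for 100% of values, within 0.01 of a read, and these were used for depth, for shares of reads and for voom. The FPKM values also hold a scaling factor per library, 0.9725 to 0.991 at 0 Gy and 1.0278 to 1.0389 at 10 Gy.

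Expression was compared on log2(FPKM + 1) with limma 3.58.1 in R 4.3.3 (eBayes with an intensity trend, two-sided) over the 12128 genes that averaged 1 FPKM or more across libraries, with Benjamini-Hochberg adjustment over all of them and a call under 0.05. No count table was used, and no set was tested. The procedure was tested on simulated data, where it called 95% of 2-fold and 57% of 1.3-fold changes, and 5% of its calls were false. The simulated spread between libraries was set alike for every gene and not taken from these libraries, so these shares may not hold here. Intervals cover the spread between libraries, and Wilson intervals cover the counting of genes. The rule for the members uses no measured value, but the rule and the gene lists were chosen with earlier results of these data known. Members were named by rule, as the 10 largest called rises and falls, the 10 highest levels at 0 Gy, the 5 longest spans, the most abundant member of each role list, the genes nearest the span limit and the 3 most abundant untested members, and exceptions are stated. From the list of elongation factors the 3 largest rises and falls were named. Alternatives covered the pseudocount, filters, scaling, the replicate block, each library left out, eBayes settings, protein-coding genes alone, voom, the span limit and the principal transcript. Libraries of equal replicate number showed no shared deviations, which cannot settle whether they were paired in the experiment. Tables and figures were made with Python 3.11.15, pandas 2.3.3, scipy 1.17.1 and matplotlib 3.10.9.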

Additional observations from a re-analysis of the deposited data

How the results depend on the processing

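The report's main counts, 23 members called, 9 higher and 14 lower, moved with scaling, the filter on low values, the span limit and the libraries left out. Without a filter 14 of 259 members were called (5.41%, beside 9.2% of all genes), 8 of them lower, and the median log2 change of the members was 0.002. With a mean of at least 5 FPKM 13 of 24 were called (54.2%, beside 49.7%), 7 of them lower. Higher and lower calls were 14 and 6 with upper quartile scaling and 15 and 5 with TPM, lower calls were 9 with median-of-ratios scaling and 7 with own recovered reads as depth, and the median was 0.029, 0.068, -0.007 and 0.015. Voom on the recovered reads gave 23 higher, 9 lower and a median of 0.029. With a span limit of 300000 bases 70 of 256 genes were called, 32 higher (12.5%, beside 11.9% of all genes) and 38 lower, and with 1000000 bases 4 of 11 (36.4%, beside 35.6%), 2 higher (18.2%) and 2 lower. Members whose principal transcript itself spans over 500000 bases, an alternative added after seeing the data together with own-read depth, had 9 lower of 63 tested. This was 14.3%, beside 16.7% of the members in the main fit and 23.7% of all tested genes. The other count settings (pseudocount of 0.1, no trend, robust eBayes, protein-coding genes only, and the excluded names and chromosomes put back) stayed within 1.5 times the main counts.

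Leaving out 1 library at a time gave 12 to 19 called members, 3 to 9 higher and 8 to 12 lower, with medians of -0.05 to -0.027. The called share was 14.3 to 22.6% of the members in these fits, beside 21.9 to 32.9% of all tested genes. The share of members with at least 1 FPKM at 0 Gy was 27.6 to 27.9% with a control left out, 46.8% at a minimum of 0.1 FPKM, 8.31% at 5 FPKM, 33.8% with a span limit of 300000 bases and 17.2% with 1000000.

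Calls of the elongation factors went from 9 higher and 18 lower to 18 and 8 with upper quartile scaling, 22 and 5 with TPM, 14 higher with median-of-ratios scaling, and 16 and 10 with own recovered reads as depth. Over all tested genes the shares higher and lower were 21.1% and 11.9% with upper quartile scaling and 25.7% and 8.79% with TPM. They were 16% and 16.9% with median-of-ratios scaling and 18.9% and 13.6% with own recovered reads as depth.

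Deviations from the group means were not shared between libraries of equal replicate number, with correlations of -0.04, -0.035 and -0.101. Whether the libraries were paired in the experiment cannot be told from these values. Blocking on the replicate number, 17 members were called, 8 higher and 9 lower, and 17 of the original 23 stayed called, without SMYD3, MECOM, HDAC9, GALNT13, PDE4D and ADAMTSL1. The share called was then 20.2%, beside 28.9% of all tested genes. It was 9.52% higher and 10.7% lower in the members, beside 9.38% and 19.5% of all tested genes.

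The named members that changed sign had not been called. In upper quartile scaling the log2 change was 0.011 for ADK, 0.034 for PRKCA, 0.054 for PTPRK, 0.074 for DOCK1 and 0.030 for DPYD. In TPM it was 0.047 for ADK, 0.071 for PRKCA, 0.093 for PTPRK, 0.024 for PARD3, 0.115 for DOCK1, 0.028 for PTPRM, 0.067 for DPYD and 0.032 for ROBO1. In median-of-ratios scaling it was 0.013 for PTPRK and 0.034 for DOCK1. With own recovered reads as depth it was 0.018 for PRKCA, 0.038 for PTPRK, 0.059 for DOCK1 and 0.014 for DPYD, and by voom 0.023, 0.046, 0.068 and 0.026 for the same 4. DOCK1 ranged from -0.047 to 0.023 over the libraries left out, and was above 0 with 0 Gy replicate 2, 10 Gy replicate 1 or 10 Gy replicate 3 left out, at 0.023, 0.004 and 0.013. The cause of these shifts was not tested.

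With 6 libraries, precision is limited, and the 95% interval of a tested member extended a median of 0.137 on the log2 scale to either side, and members under 1 FPKM were left untested.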
